A study of Mus musculus with 27 samples.

Results

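The genes that encode collagen chains were described across cells labelled through Prx1 and sorted from 3 tissues of the mouse hindlimb. A gene counted as a collagen gene when its symbol consisted of Col, a type number, the letter a and a chain number. This rule found 44 of the 30153 genes in the table, and all 44 passed the filter on low values that left 18442 genes for testing. By class, 11 were fibrillar, 9 were FACIT (fibril-associated collagens with interrupted triple helices), 9 belonged to basement membranes and 15 were other collagens. The study asked how these cells differ between muscle, periosteum and bone marrow, and between subpopulations within a tissue. RNA-seq libraries came from 9 groups of 3 libraries each, 27 in all. Every group came from untreated hindlimbs of adult Prx1-CreER/Ai14/Rag1 mice after tamoxifen, so the Rag1 mutation was shared by all of them. The study used male and female mice, and the sex of the mice in each group was not given in the sources used here. The Prx1 promoter drove the inducible Cre, and the tdTomato label marked cells that used this promoter at induction together with their progeny. Muscle around the femur was minced and digested, periosteum was scraped from the femur and tibia and digested, and marrow was flushed from the same bones. From each tissue, Prx1+ CD45- cells were sorted by 2 surface proteins. P1 cells lacked CD105 and carried CD200, P2 cells lacked both, and P3 cells carried CD105 with variable CD200. The 3 libraries of a group were described as 3 mice. Whether 1 mouse gave cells to several groups was not given in the sources used here, and p-values measure the spread between the libraries. In sorted bulk samples, fewer cells of a type and less RNA per cell cannot be told apart.

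Collagens are trimers of chains that wind into a triple helix. Fibrillar collagens form the cross-banded fibrils that carry load: type I dominates bone and tendon, type III accompanies it in soft connective tissue, types V and XI sit within fibrils and set their diameter, and type II is the fibril of cartilage. FACIT collagens decorate fibrils, type IV and its partners build the sheet-like basement membranes under endothelium and around muscle fibres, and the remaining types form beaded filaments, hexagonal networks or transmembrane proteins. Chains are hydroxylated and folded in the endoplasmic reticulum, trimmed by proteases outside the cell, cross-linked by lysyl oxidases, bound by integrins and discoidin receptors, and broken down by matrix metalloproteinases.

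Promoter windows of RefSeq (build GRCm38.p6, 250 bases before to 50 after a transcript start, 300 in all) were available for 35 of the 44 genes. Of these, 5 are shown because the results turn on them: the Col4a1 and Col4a2 pair, whose chains assemble together, Col1a2 and Col11a2, which were highest in bone marrow P1, and Col9a2, which was highest in periosteum P2. Col4a2 (chr8:11312555-11312854, plus strand) and Col4a1 (chr8:11312777-11313076, minus strand) lie head to head with starts 21 bases apart, and the capitals mark the 78 bases that both windows share, each read on its own strand. In the windows of Col1a2 (chr6:4505368-4505667, plus strand), Col9a2 (chr4:121039316-121039615, plus strand) and Col11a2 (chr17:34038888-34039187, plus strand), capitals mark short stretches on either strand. These are TATAAA (the letters of a TATA box), GGGCGG (the core of a GC box) and CCAAT (the letters of a CCAAT box), wherever they lie in the window.
Col4a2: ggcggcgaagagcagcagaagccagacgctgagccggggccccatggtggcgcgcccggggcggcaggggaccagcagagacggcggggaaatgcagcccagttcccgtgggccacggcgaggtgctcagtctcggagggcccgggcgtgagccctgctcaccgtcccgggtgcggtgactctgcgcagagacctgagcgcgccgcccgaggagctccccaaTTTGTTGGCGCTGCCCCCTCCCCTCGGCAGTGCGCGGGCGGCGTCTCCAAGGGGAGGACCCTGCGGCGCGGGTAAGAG
Col4a1: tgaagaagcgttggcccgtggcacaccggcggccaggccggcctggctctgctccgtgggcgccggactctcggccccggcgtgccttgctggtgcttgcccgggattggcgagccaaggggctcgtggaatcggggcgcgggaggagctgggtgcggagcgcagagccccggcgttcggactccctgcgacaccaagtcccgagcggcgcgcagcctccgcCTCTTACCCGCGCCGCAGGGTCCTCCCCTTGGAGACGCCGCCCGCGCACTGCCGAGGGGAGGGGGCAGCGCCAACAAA
Col1a2: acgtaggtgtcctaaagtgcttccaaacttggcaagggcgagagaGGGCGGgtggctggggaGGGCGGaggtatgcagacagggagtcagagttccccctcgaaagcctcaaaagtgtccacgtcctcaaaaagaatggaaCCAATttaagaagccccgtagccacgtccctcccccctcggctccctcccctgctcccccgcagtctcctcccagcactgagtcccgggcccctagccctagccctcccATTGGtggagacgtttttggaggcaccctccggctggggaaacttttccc
Col9a2: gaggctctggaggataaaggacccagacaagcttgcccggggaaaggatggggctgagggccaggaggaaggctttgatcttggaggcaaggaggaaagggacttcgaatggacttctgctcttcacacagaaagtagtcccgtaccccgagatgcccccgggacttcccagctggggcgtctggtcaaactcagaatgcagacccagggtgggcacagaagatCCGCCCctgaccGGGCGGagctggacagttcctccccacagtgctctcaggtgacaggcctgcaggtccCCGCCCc
Col11a2: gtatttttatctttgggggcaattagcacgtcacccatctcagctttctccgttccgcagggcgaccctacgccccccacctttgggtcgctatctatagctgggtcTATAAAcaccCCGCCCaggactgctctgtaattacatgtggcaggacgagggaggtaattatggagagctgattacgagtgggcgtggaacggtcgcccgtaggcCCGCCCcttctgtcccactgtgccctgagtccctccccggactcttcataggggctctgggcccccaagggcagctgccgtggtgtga
Each motif was searched as exact letters on both strands, and CCAAT and AACAAT end alike but cannot match the same stretch. TATAAA occurred in 5 of the 38 collagen windows (13.2%), more than 1 for some genes, and in 13.6% of all 32851 windows. It was found in 2 of 8 fibrillar windows and 3 of 15 windows of other collagens, and in 0 of 6 FACIT and 0 of 9 basement membrane windows. GGGCGG occurred in 23 collagen windows (60.5%) against 35.7% of all windows. CCAAT occurred in 13 (34.2%) against 37.4%. A core bound by Sox factors, AACAAT, occurred in 1 (2.63%) against 10.7%. These matches describe letters in the windows, without regard to their distance from the transcript start.

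Totals of normalized counts per library ranged from 8631881 to 26230908, and 12396 to 21675 genes had a value above 0. Correlations between replicates of a group on the log2 scale lay between 0.862 and 0.955 in muscle, 0.631 and 0.827 in periosteum, and 0.767 and 0.935 in bone marrow, so periosteal values carried the widest spread. Eng, which encodes CD105, lay between 774 and 7328 in the P3 libraries and between 5.18 and 569 in the P1 and P2 libraries. Cd200 lay between 1025 and 7515 in P1 and between 7.24 and 1107 in P2, and the highest P2 library, muscle P2 replicate 2, exceeded the lowest P1 library. The P2 groups held RNA of other cells: the 4 adult globin genes made up 44.2% to 47.3% of all counts in bone marrow P2 and 24.1% to 38.6% in periosteum P2, and 6 muscle fibre genes made up 9.13% to 9.72% in muscle P2. Their part in the P1 to P2 differences was not tested.

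Collagens held very different shares of the counted RNA in the 9 groups. In bone marrow P1 they held 33.2%, 42.0% and 28.9% of all normalized counts (34.7% ± 6.67, SD, n = 3). Periosteum P1 followed with 10.03%, 19.4% and 16.4% (15.3% ± 4.80). Every bone marrow P1 library exceeded every periosteum P1 library, and these exceeded all libraries of the other 7 groups. Muscle P1 held 3.73% ± 0.388 and muscle P3 3.25% ± 0.272, and their ranges overlapped. Periosteum P3 held 4.61% ± 1.97 and periosteum P2 3.89% ± 1.16. Muscle P2 held 0.922% ± 0.319, bone marrow P3 1.23% ± 0.547 and bone marrow P2 0.0576% ± 0.0305. Col1a1 and Col1a2, the chains of type I collagen, made up most of the share in bone marrow P1 (26.6% to 39.4% of all counts). Without this pair the collagen share was 2.63% ± 0.312 in bone marrow P1, 3.70% ± 1.34 in periosteum P1 and 3.75% ± 1.09 in periosteum P2, with overlapping ranges for bone marrow P1 and periosteum P1. Among the P1 groups, marker genes of osteoblasts followed the order of the shares. The 8 genes, all listed, summed to 939237 to 1342688 in bone marrow P1, 250330 to 492443 in periosteum P1 and 11695 to 30643 in muscle P1. In P3 cells the order differed: every bone marrow library had a higher sum than every muscle library but a smaller collagen share. The part of these markers in the shares was not tested.

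**Figure D1:**
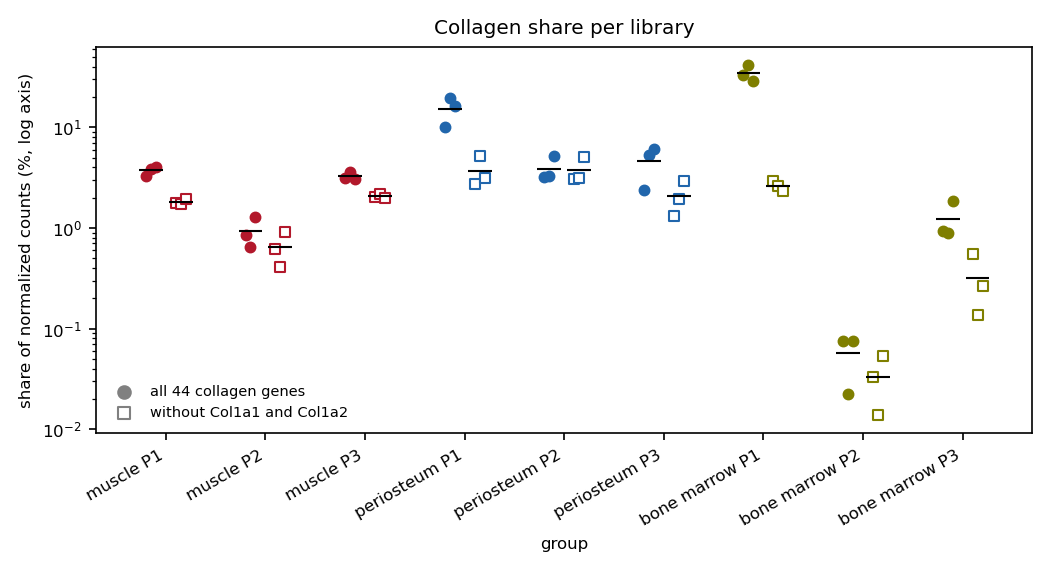
Share of all normalized counts held by the collagen genes in each library (percent, log axis) for the 9 groups, coloured by tissue. Filled circles count all 44 genes, open squares leave out Col1a1 and Col1a2, and bars are means of 3 libraries. The bone marrow P1 libraries sit between 28.9% and 42.0% with all genes.

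The mix of types also differed. Levels were divided by the length of the longest coding transcript so that types could be compared, and each type was expressed as a percentage of the summed per-kb collagen level. Type I made up 92.9% ± 1.24 (SD, n = 3) in bone marrow P1, 74.9% ± 5.37 in periosteum P1 and 52.1% ± 4.13 in muscle P1. In muscle, type III, which forms thin fibrils beside type I, held 22.7% ± 2.22 in P1, 34.5% ± 7.55 in P2 and 32.7% ± 0.498 in P3. In periosteum P2, type I held 2.92% ± 0.926, and the cartilage types II and IX held 49.9% ± 7.08 and 29.0% ± 6.93. The 6 marker genes of chondrocytes, all above 0 in every periosteum P2 library, summed to 58115 to 143909 there. The sums were 25199 to 93446 in periosteum P1 and 9436 to 23329 in periosteum P3. Types II and IX did not follow this order in P1 and P3, with means of 7.78% and 2.13% in P1 and 10.3% and 2.48% in P3. One of the 6, Comp, alone lay between 15651 and 35207 in periosteum P1 and between 6620 and 14367 in P3. The part of these markers in the mix was not tested. The per-kb ratio of Col3a1 to Col1a1 ran from 0.845 to 1.36 in muscle P1, from 0.0338 to 0.201 in periosteum P1 and from 0.000886 to 0.00447 in bone marrow P1, with no overlap between the tissues. The ratio of Col2a1 to Col1a1 ran from 49.0 to 88.1 in periosteum P2 and from 0.102 to 0.434 in periosteum P1.

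**Figure D2:**
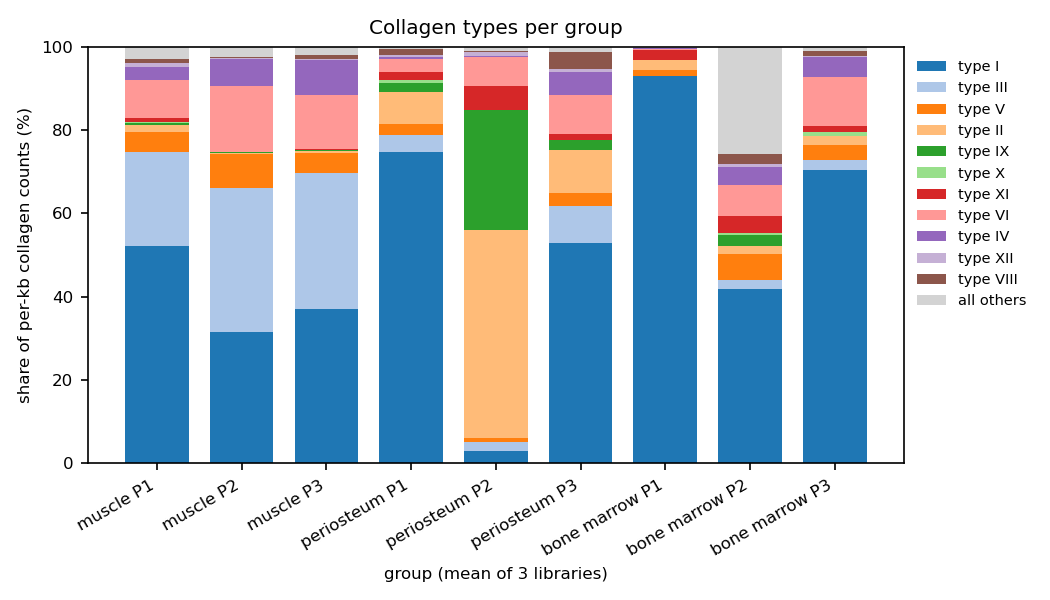
Composition of the collagen message by type in each group, as a percentage of the summed level per kb of coding transcript (mean of 3 libraries, bars from 0 to 100%). Type I fills 92.9% of the bar of bone marrow P1, and types II, IX, X and XI together fill 84.6% of the bar of periosteum P2.

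By mean log2 level, each gene was assigned to the group where it was highest, without a test between neighbouring groups. Bone marrow P1 was highest for 10 genes: Col1a1, Col1a2, Col5a1, Col5a2, Col11a1, Col11a2, Col13a1, Col22a1, Col24a1 and Col25a1. Muscle P1 was highest for 9, namely Col4a4, Col4a5, Col4a6, Col14a1, Col16a1, Col18a1, Col19a1, Col20a1 and Col28a1. Periosteum P1 was highest for 7 (Col6a1, Col6a2, Col8a1, Col8a2, Col10a1, Col12a1 and Col23a1) and periosteum P2 for 6 (Col2a1, Col6a3, Col9a1, Col9a2, Col9a3 and Col27a1). Muscle P3 was highest for 6 (Col3a1, Col4a1, Col4a2, Col4a3, Col6a6 and Col15a1), bone marrow P2 for 5 (Col6a4, Col6a5, Col7a1, Col17a1 and Col26a1) and muscle P2 for 1 (Col5a3). Periosteum P3 and bone marrow P3 were highest for 0.

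**Figure D3:**
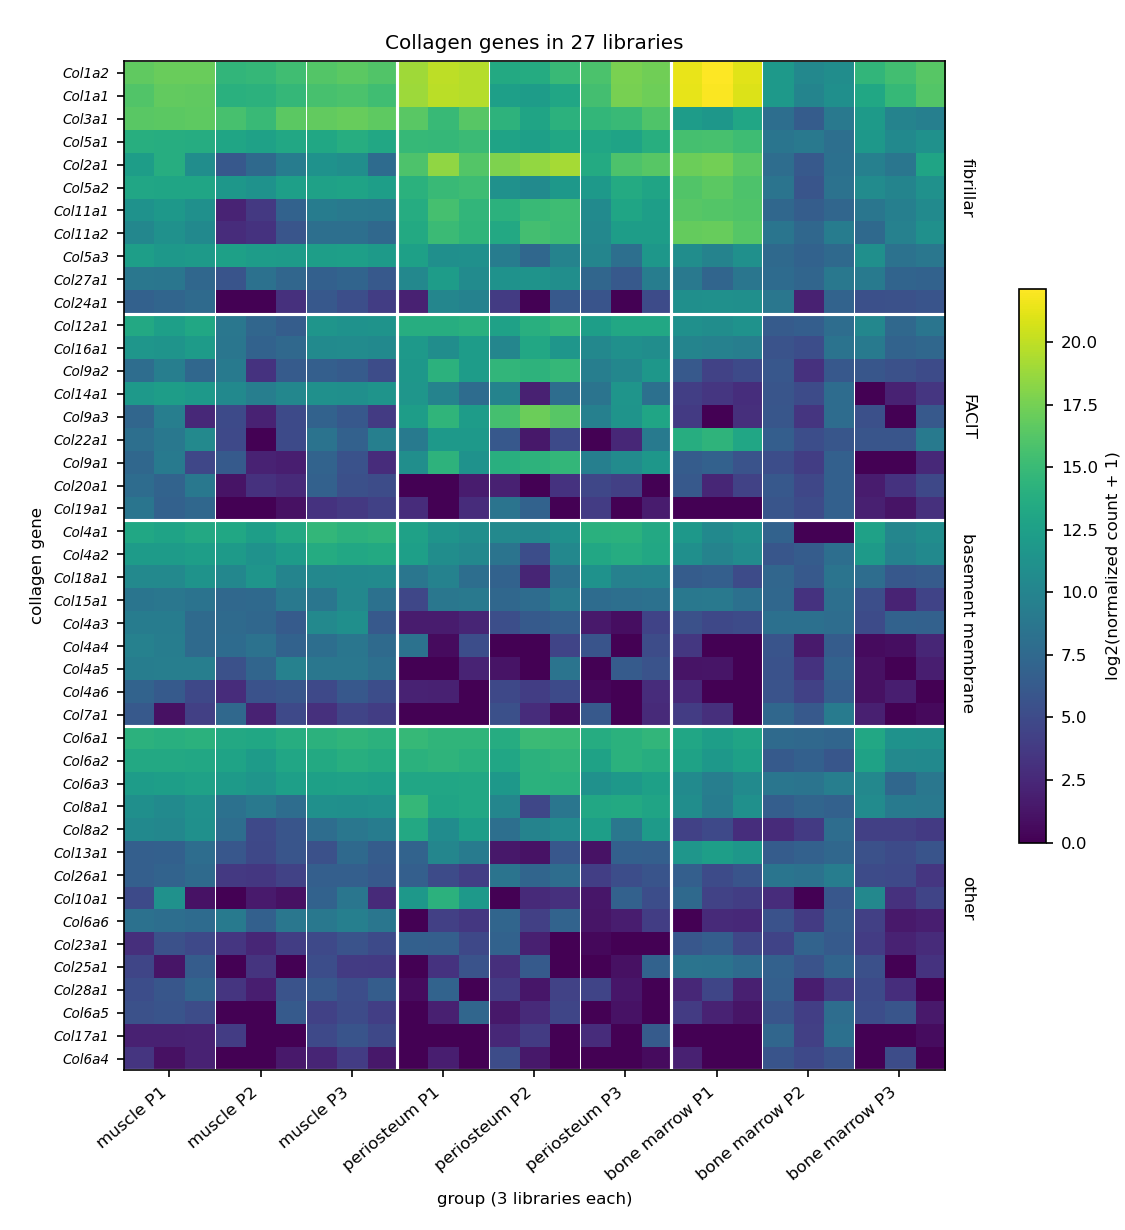
Level of each of the 44 collagen genes (rows, ordered by mean level within a class) in each of the 27 libraries (columns, 3 per group), as log2(normalized count + 1). Bright fibrillar entries stand out in bone marrow P1, type II and type IX genes are bright in periosteum, and most collagens are dark in bone marrow P2.

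The first comparison set P1 against P2 within each tissue. Changes are differences of means of log2(normalized count + 1), and a gene was called when the limma test gave a Benjamini-Hochberg adjusted p below 0.05 over all 18442 genes and the change exceeded 1.5. In muscle, 13 of 44 collagens were higher in P1 and 0 were lower, against a background of 3.59% of all genes higher and 4.62% lower. The median change was 1.99 for the collagens and 0.24 for all genes. In periosteum, 12 were higher and 4 lower, against 10.1% and 8.96% of all genes, and the medians were 0.02 and 0. With values rescaled to the same total per library, the periosteal split became 12 higher and 1 lower. In bone marrow, 19 were higher and 9 lower, against 10.4% and 23.7% of all genes, with medians of 1.49 and -0.61. Col1a1, Col1a2 and Col22a1 were called higher in P1 in all 3 tissues. The share of all genes called in all 3 tissues was not computed, so this recurrence has no background beside it. Fitted with these groups alone, the periosteal comparison called 3 collagens in place of 16. Rescaling moved the median of all genes by up to 0.79 on the log2 scale in these and the following comparisons (from -0.79 to 0.70 for equal totals and from -0.73 to 0.44 for quantile normalization).

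The second comparison set P1 against P3. In muscle, 0 of 44 collagens were called in either direction by limma, against 0.141% of all genes higher and 0.325% lower, and 6 collagens had an unadjusted p below 0.05. Fitted with these 2 groups alone, 4 were higher and 1 lower. In periosteum, 8 were higher in P1 and 0 lower, against 1.39% and 2.79% of all genes. This count fell to 4 without periosteum P1 replicate 2, to 5 without periosteum P1 replicate 3 or periosteum P3 replicate 1, to 5 after quantile normalization and to 0 with the 2 groups fitted alone. In bone marrow, 12 were higher and 0 lower, against 3.46% and 3.14% of all genes. The collagen median was 1.20 in bone marrow, 0.91 in periosteum and 0.62 in muscle, against 0, 0 and -0.07 for all genes. The difference between tissues was tested directly as an interaction at an adjusted p below 0.05. For muscle against bone marrow, 6 collagens were called, all with the smaller P1 to P3 change in muscle, against 2.03% of all genes. For periosteum against bone marrow, 4 were called in the same direction, against 0.537%. These 4 became 2 without periosteum P1 replicate 1, periosteum P3 replicate 2, bone marrow P1 replicate 1 or bone marrow P3 replicate 2, 1 without bone marrow P1 replicate 2, and 0 without a trend in the limma prior. For muscle against periosteum, limma called 0, against 0.249% of all genes, 8 had an unadjusted p below 0.05, and 1 was called without periosteum P2 replicate 1 or periosteum P3 replicate 3. The 6 and the 4 were all fibrillar.

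The third comparison set tissues against each other within a subpopulation. Among P1 cells, muscle had 6 collagens above periosteum and 9 below it, against 4.34% and 0.559% of all genes. Leaving out muscle P1 replicate 1 or periosteum P1 replicate 2 took the total from 15 to 9, and leaving out muscle P1 replicate 3 took it to 8. Against bone marrow P1, muscle P1 had 12 collagens higher and 8 lower, against 5.4% and 2.94%, and equal totals per library made this 17 higher and 7 lower. Periosteum P1 had 13 higher and 2 lower than bone marrow P1, against 1.91% and 2.96%. With equal totals this became 13 higher and 0 lower, and after quantile normalization 12 and 0. It fell to 9 called, all higher, without periosteum P1 replicate 1 or bone marrow P1 replicate 2. Among P3 cells, muscle had 4 above periosteum and 6 below it, against 2.65% and 0.851% of all genes. The total of 10 fell to 6, 4 and 2 without muscle P3 replicates 1, 2 and 3 and to 3 without periosteum P3 replicate 2. Muscle P3 had 20 higher and 0 lower than bone marrow P3, against 6.14% and 4.25%, and periosteum P3 had 18 higher and 1 lower, against 2.95% and 3.99%. Without bone marrow P3 replicate 2 these last counts fell to 12 and 10, all higher, and the periosteal count fell to 5 with both groups fitted alone. P2 cells were compared between tissues by level alone.

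Among fibrillar collagens, P1 exceeded P2 for 10 of 11 genes in bone marrow, 6 of 11 in periosteum and 6 of 11 in muscle, and 0 were lower. In the same order, 10.4%, 10.1% and 3.59% of all genes were higher and 23.7%, 8.96% and 4.62% were lower. The class medians were 8.29, 2.10 and 2.08 on the log2 scale. Col1a2 encodes the alpha-2 chain of type I. Its normalized counts were 2815259, 4585207 and 2357618 in bone marrow P1 and 3962, 1254 and 1799 in bone marrow P2. The groups did not overlap, and the change was 10.55 on the log2 scale (SE 0.47, adjusted p = 1.08e-13). In periosteum, Col1a2 stood at 514697, 986049.6 and 849775 in P1 and 10927, 12876 and 32081 in P2, a change of 5.51 (SE 0.47, adjusted p = 1.24e-08). In muscle the values were 107289.8, 140073 and 133754 and 23767, 26541 and 41724, again without overlap, and the change was 2.08 (SE 0.47, adjusted p = 0.00544). Col1a1, its partner chain, changed by 10.44 in bone marrow (adjusted p = 2.19e-12), 6.87 in periosteum (adjusted p = 5.98e-09) and 2.21 in muscle (adjusted p = 0.013). The muscle call of Col1a1 was lost without muscle P1 replicates 2 or 3 or muscle P2 replicate 1 (adjusted p = 0.0506 to 0.0586). The per-kb ratio of Col1a1 to Col1a2 lay between 0.802 and 0.823 in bone marrow P1, between 0.864 and 0.906 in periosteum P1 and between 0.607 and 0.760 in muscle P1, and its full range over the 27 libraries was 0.251 to 1.07.

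Between tissues, type I chains were lower in muscle P1. Col1a1 stood at 72212, 117997 and 105977 in muscle P1, 493351, 961564 and 853507 in periosteum P1 and 2570531, 4087529.7 and 2095399 in bone marrow P1. The 3 tissues did not overlap, and muscle lay below periosteum (log2 change -2.94, SE 0.56, adjusted p = 0.0024) and below bone marrow (log2 change -4.86, SE 0.56, adjusted p = 2.51e-06). The step from periosteum to bone marrow was -2.05 for Col1a2 (SE 0.47, adjusted p = 0.0105), and that call was lost without periosteum P1 replicate 1 or bone marrow P1 replicate 2 (adjusted p = 0.0685 to 0.0729). For Col1a1 it was -1.92 (adjusted p = 0.047), was lost when any 1 of 17 of the 27 libraries was left out, and turned to 0.14 after quantile normalization. After that normalization the call of Col1a2 in muscle P1 was also lost against periosteum (adjusted p = 0.386) and bone marrow (adjusted p = 0.272).

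Type III went the other way. Col3a1, abundant in skin, vessels and muscle connective tissue, stood at 92309, 93542 and 104576 in muscle P1, 92889, 30484 and 87248 in periosteum P1 and 4892, 3398 and 8792 in bone marrow P1. Both other tissues lay wholly above bone marrow, by 4.20 for muscle (SE 0.62, adjusted p = 4.87e-05) and 3.57 for periosteum (SE 0.62, adjusted p = 0.000679). In P3 cells the levels were 4234, 979.7 and 741 in bone marrow, 25909.6, 32392 and 68906 in periosteum and 112587, 132716 and 104769 in muscle. There muscle lay above bone marrow by 6.32 (adjusted p = 1.47e-07) and periosteum by 4.73 (adjusted p = 2.03e-05). Within bone marrow, Col3a1 was higher in P1 than in P2 by 4.58 (SE 0.62, adjusted p = 4.96e-06). In muscle, P2 stood at 51614, 32450.4 and 98056 and overlapped P1 (change 0.82, adjusted p = 0.536).

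Col5a1, a chain of type V, which helps fibrils nucleate, stood at 49232, 54029 and 38190.1 in bone marrow P1, 29739, 28119 and 35635 in periosteum P1 and 14779, 14350.1 and 13127 in muscle P1. The tissues did not overlap, and muscle P1 lay below bone marrow P1 (log2 change -1.73, SE 0.29, adjusted p = 0.000259). With equal totals per library this change was -1.05, short of the 1.5 required. In bone marrow P2 and P3 the values were 381, 488 and 269 and 3515, 1455 and 2342. Col5a1 was higher in bone marrow P1 than in P2 by 6.98 (adjusted p = 2.66e-14) and than in P3 by 4.35 (adjusted p = 1.45e-09). In periosteum, Col5a1 was higher in P1 than in P3 by 1.66 (adjusted p = 0.00095), but its change fell to 1.45 without periosteum P3 replicate 2, to 1.32 with equal totals and to 1.37 after quantile normalization, each short of 1.5. Col5a2, its partner chain, chosen after its values were seen, stood at 72756, 96902 and 61699.7 in bone marrow P1 and 1607, 1014 and 2409 in bone marrow P3. Every P1 library exceeded every P3 library (change 5.58, SE 0.53, adjusted p = 2.44e-07).

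Against P3, 7 of 11 fibrillar genes were higher in P1 in bone marrow, with a class median of 5.58 on the log2 scale. The count was 5 with a median of 2.57 in periosteum, and 0 with a median of 0.93 in muscle. The shares of all genes higher in P1 were 3.46% in bone marrow, 1.39% in periosteum and 0.141% in muscle. The periosteal count fell to 3 with equal totals per library, with or without collagens and globins in the total, and to 2 with a median of 1.48 after quantile normalization. Col11a2, a type XI chain that seeds thin fibrils in cartilage, had the largest change of a called collagen in bone marrow. Its values were 118905, 127433 and 81322 in bone marrow P1 and 193, 854 and 2203 in bone marrow P3. P1 exceeded P3 in every library, by 7.23 (SE 0.81, adjusted p = 2.61e-06). For Col1a1, the bone marrow change was 6.67 (SE 0.56, adjusted p = 6.34e-08), 2.73 in periosteum (SE 0.56, adjusted p = 0.00465) and 0.93 in muscle (SE 0.56, adjusted p = 1). The periosteal call was lost after quantile normalization (adjusted p = 0.38). With the 2 groups fitted alone, the calls of Col1a1 were lost in bone marrow (adjusted p = 0.157) and periosteum (adjusted p = 0.373).

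The interaction of Col1a1 between muscle and bone marrow was -5.74 (SE 0.80, adjusted p = 0.000259), and that of Col1a2 was -5.45 (SE 0.67, adjusted p = 5.52e-05). Col1a2 lost this call after quantile normalization (adjusted p = 0.286). Col5a1 differed between muscle and bone marrow by -3.98 (SE 0.41, adjusted p = 1.03e-05) and between periosteum and bone marrow by -2.69 (SE 0.41, adjusted p = 0.00239). The latter had an adjusted p of 0.0785 without a trend in the limma prior. For Col5a2 the difference between muscle and bone marrow was -5.20 (SE 0.75, adjusted p = 0.000368). The call of Col11a2 between muscle and bone marrow (adjusted p = 0.0393) was lost on leaving out any 1 of 11 libraries. The called interactions share the bone marrow libraries.

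**Figure D4:**
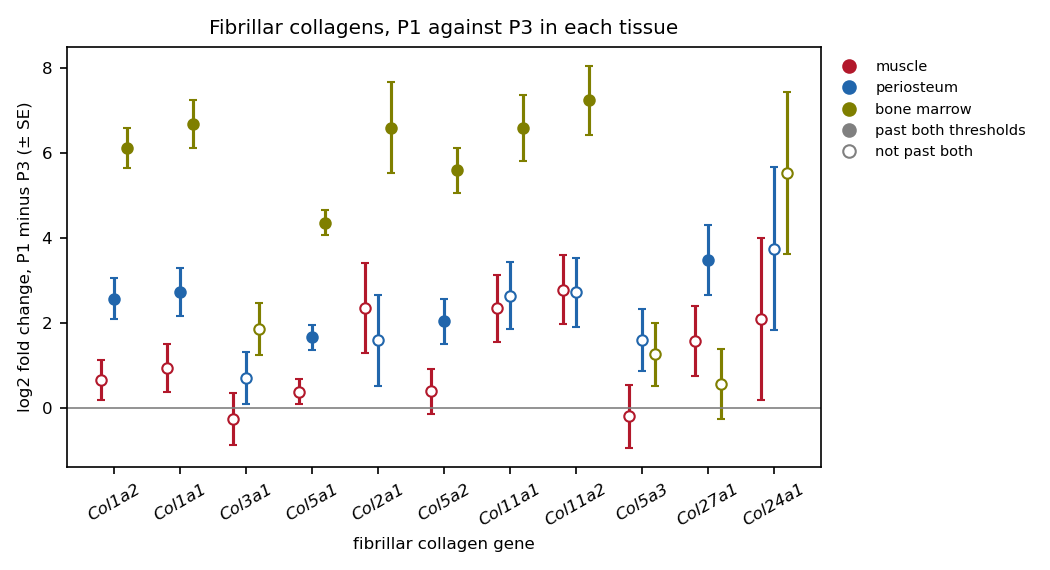
Change of each fibrillar collagen gene from P3 to P1 in muscle, periosteum and bone marrow, as log2 fold change of P1 minus P3 with its standard error (3 libraries per group). Filled points passed both thresholds. The bone marrow points of Col1a1, Col1a2, Col2a1, Col5a1, Col5a2, Col11a1 and Col11a2 lie between 4.35 and 7.23, and no muscle point is filled.

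In bone marrow P1, Col2a1 was high while the type IX genes were low. Col2a1, the chain of the cartilage fibril, stood at 240598, 374590.5 and 590511 in periosteum P2, 62224, 359279 and 75226 in periosteum P1 and 143665, 171864 and 89106 in bone marrow P1. Periosteum P1 overlapped both other groups, with changes of -1.66 against periosteum P2 (adjusted p = 0.282) and -0.13 against bone marrow P1 (adjusted p = 1). Within bone marrow, Col2a1 was at 243, 70.8 and 290.0 in P2 and 775, 403 and 7865 in P3, below every P1 library. P1 was higher than P2 by 9.56 (SE 1.06, adjusted p = 3.38e-07) and than P3 by 6.59 (SE 1.06, adjusted p = 0.000205). Col9a1, whose product coats type II fibrils, stood at 1972, 19891 and 2484 in periosteum P1 but at 86.1, 114 and 49.5 in bone marrow P1. The groups did not overlap, and periosteum was higher by 5.85 (SE 1.29, adjusted p = 0.00713). Col9a2 was higher there by 7.54 (SE 1.07, adjusted p = 8.36e-05) and Col9a3 by 10.79 (SE 1.62, adjusted p = 0.00018), where the bone marrow P1 libraries held 12.2, 0 and 6.89. The per-kb ratio of Col2a1 to Col9a1 was 1132 to 1352 in bone marrow P1, 13.6 to 23.7 in periosteum P1 and 11.5 to 17.2 in periosteum P2. The 6 chondrocyte markers summed to 402 to 597 in bone marrow P1. Matn3 was at 0 in 2 of 3 libraries, Cnmd at 0 in 2 of 3 and Acan between 3.40 and 21.3. Sox9 lay between 125 and 152, Hapln1 between 122 and 294 and Comp between 121 and 142. Sox9 and Hapln1 were above every library of bone marrow P2 and P3, whereas Matn3, Cnmd, Acan and Comp overlapped bone marrow P3. The part of these markers in the Col2a1 level was not tested. Fitted with both groups alone, Col9a1 in this comparison had an adjusted p of 0.0503.

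In P1 cells, Col11a2 stood at 1212, 2367 and 1443 in muscle P1, 11111, 34799 and 23142 in periosteum P1 and 118905, 127433 and 81322 in bone marrow P1. Muscle lay below the other tissues in every library, with changes of -6.06 against bone marrow (SE 0.81, adjusted p = 1.45e-05) and -3.69 against periosteum (SE 0.81, adjusted p = 0.00714). Periosteum P1 also lay below bone marrow P1 in every library, but the change of -2.37 did not pass the test (adjusted p = 0.0924). In muscle, Col11a2 was higher in P1 than in P2, whose libraries held 5.81, 8.18 and 57, by 6.71 (SE 0.81, adjusted p = 4.98e-06). Col2a1 rose in muscle P1 as well, by 4.64 over P2 (SE 1.06, adjusted p = 0.00551), from 67.6, 191 and 630.4 to 5054, 14155 and 1812. Col24a1, a minor fibrillar chain of bone, was chosen after its values were seen and stood at 2091, 2237 and 2069 in bone marrow P1 and at 3.16, 1155 and 887 in periosteum P1, where replicate 1 stood apart.

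**Figure D5:**
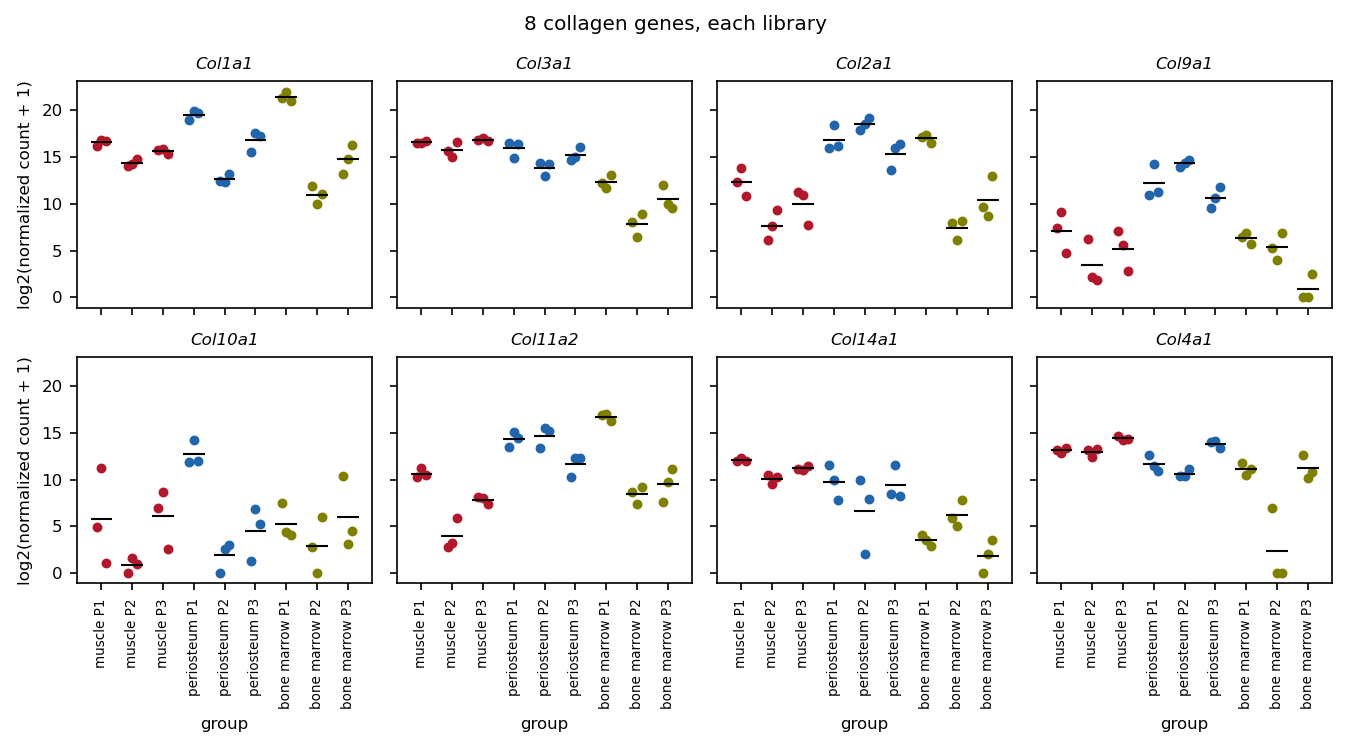
Level of 8 collagen genes in every library (points, log2(normalized count + 1)), with the mean of the 3 libraries of each group as a bar, coloured by tissue. Col2a1 is high in periosteum and in bone marrow P1, whereas Col9a1 is high in periosteum and low in bone marrow P1.

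Of the 9 FACIT collagens, P1 exceeded P2 for 5 in muscle and 1 in periosteum, and bone marrow had 3 higher and 1 lower. Of all genes, 3.59%, 10.1% and 10.4% were higher in these comparisons and 23.7% were lower in bone marrow, so the periosteal share was near the background. Tendon cell markers were higher in muscle P1: 5 genes, each above 0 in every library of both groups, summed to 68515 to 131385 in muscle P1 and 3090 to 3739 in muscle P2. In periosteum, where 1 FACIT gene was called, Scx, Tnmd and Thbs4 were also higher in every P1 library than in P2. Mkx and Fmod overlapped there. The part of these markers in the changes was not tested. Col12a1, whose product links fibrils in tendon, ligament and periosteum, stood at 10678, 5643 and 9347 in muscle P1 and 449, 158 and 93.1 in muscle P2. Every P1 library exceeded every P2 library, by 5.45 (SE 0.60, adjusted p = 1.43e-06). In bone marrow P1 it stood at 2246, 1792 and 2535, higher than in P2 by 4.14 (SE 0.60, adjusted p = 1.24e-05). In periosteum P1 it stood at 14290.5, 13947 and 17389, above bone marrow P1 in every library, by 2.80 (SE 0.60, adjusted p = 0.00539). Periosteum P2 held 6573, 15950.2 and 26328 and overlapped P1. Among P3 cells, periosteum exceeded bone marrow by 4.20 (SE 0.60, adjusted p = 5.53e-05).

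Col16a1, a fibril-associated chain of several connective tissues, stood at 3128, 2749.5 and 4456 in muscle P1 and 401, 122 and 177 in muscle P2. There was no overlap (change 4.03, SE 0.74, adjusted p = 0.000727), and in bone marrow the change was 3.29 (adjusted p = 0.00153). Col19a1, a rare chain first known from muscle and neural tissue, had the largest rise in muscle P1 against P2. It stood at 382, 113 and 167 in P1 and 0, 0 and 0.944 in P2, a change of 7.28 (SE 1.46, adjusted p = 0.00178), and it was listed at 0 in every bone marrow P1 library. Its muscle P2 values lay below the pseudocount of 1, which sets the size of this change and so its rank. Col14a1, whose product limits fibril growth, was higher in every muscle and periosteum library than in bone marrow in P1 and P3 cells. Periosteum held 3123, 959 and 227 in P1 and 361, 2911 and 293 in P3. In P2 cells, periosteum at 978, 3.14 and 234 overlapped bone marrow at 57, 32.3 and 222. In P3 cells Col14a1 stood at 2233, 2139 and 2858 in muscle and 0, 3.28 and 10.6 in bone marrow, a change of 9.35 (SE 1.37, adjusted p = 4.34e-05). In P1 cells it stood at 4107, 5195 and 4007 in muscle and 16.1, 10.3 and 6.65 in bone marrow, again with no overlap, a change of 8.59 (SE 1.37, adjusted p = 0.000135).

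The 3 type IX chains, which coat type II fibrils, were high in periosteum. In periosteum P2, Col9a1 stood at 15677, 20391 and 25763, Col9a2 at 23713, 19962 and 27759.8 and Col9a3 at 48488, 148459.7 and 85315. These levels were above the 24 libraries of the other 8 groups for Col9a2 and Col9a3, while periosteum P1 replicate 2 reached 19891 for Col9a1. None of the 3 chains differed between periosteum P1 and P2 past the thresholds, with changes of -2.13, -1.78 and -3.35 (adjusted p = 0.256, 0.253 and 0.152). In P3 cells, Col9a1 stood at 752, 1614 and 3450.3 in periosteum and 0, 0 and 4.72 in bone marrow. This was the largest rise of a collagen in that comparison, 9.82 (SE 1.29, adjusted p = 2.23e-05). With bone marrow values this low, the pseudocount of 1 affects the size and rank of this change. Muscle P1 lay below periosteum P1 for Col9a3, with a change of -6.56 (adjusted p = 0.0172), and that call was lost without muscle P1 replicate 3 or periosteum P1 replicate 2 (adjusted p = 0.0645 to 0.144). In P3 cells the muscle change of Col9a3 was -5.75 (adjusted p = 0.0469), was lost on leaving out any 1 of 12 libraries, and had an adjusted p of 0.0552 with a replicate block. Col9a1 and Col9a2 were lower in muscle P1 than in periosteum P1 as well, with changes of -5.10 and -4.51. These calls were lost without muscle P1 replicates 1 or 3 or periosteum P1 replicate 2 (adjusted p = 0.0545 to 0.144) for Col9a1, and without muscle P1 replicates 1 or 3 or periosteum P1 replicate 2 (adjusted p = 0.0567 to 0.073) for Col9a2.

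Col22a1, a chain of tissue junctions such as that of muscle and tendon, was named after its values were seen because it was called higher in P1 than P2 in all 3 tissues. It stood at 13870.3, 21858 and 8597 in bone marrow P1 and 94.8, 36.3 and 58.4 in bone marrow P2. No library overlapped (change 7.85, SE 1.70, adjusted p = 0.00113). In periosteum it stood at 510.3, 4005 and 3752 in P1 and 66.6, 1.71 and 30 in P2 (change 6.79, adjusted p = 0.00687). The muscle call (adjusted p = 0.0317) was lost without muscle P1 replicates 1, 2 or 3 or muscle P2 replicate 2 (adjusted p = 0.0551 to 0.207). With the groups fitted alone, the periosteal call was lost (adjusted p = 0.139).

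Of the 9 basement membrane collagens, limma called 0 between muscle P1 and P2 and 0 between muscle P1 and P3, and 0 had an unadjusted p below 0.05 in either comparison. The shares of all genes were 3.59% higher and 4.62% lower against P2, and 0.141% higher and 0.325% lower against P3. In bone marrow, 2 were higher and 4 lower in P1 than in P2, with a class median of -2.95, against 10.4% of all genes higher and 23.7% lower. With equal totals per library this became 2 higher and 2 lower. Col4a1, a chain of the ubiquitous type IV network, stood at 26099.8, 19454 and 21255 in muscle P3 and 9448, 7298 and 10263 in muscle P1. Col4a2, its partner, stood at 12447, 9880.5 and 10996 and 4647, 4557 and 5332. For both, every P3 library exceeded every P1 library, but the changes of -1.31 and -1.19 did not pass the test (adjusted p = 1 and 1). Periosteum P3 held 17151, 18006 and 10376 of Col4a1 against 6328, 2870.1 and 1986 in P1, likewise without overlap (change -2.16, adjusted p = 0.304). In bone marrow, P3 held 6484, 1167 and 1859.9 and P1 3509.7, 1461 and 2186, which overlapped. Endothelial markers stood higher in P3: 7 genes, all listed, summed to 25495 to 41651 in muscle P3 against 4030 to 11414 in P1, 14694 to 31551 in periosteum P3 against 297 to 1855, and 2178 to 9247 in bone marrow P3 against 108 to 160, where Tek, Emcn and Cldn5 were at 0 in 2 of 3 libraries. Their part in the type IV levels was not tested.

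The per-kb ratio of Col4a1 to Col4a2, the head-to-head pair whose windows are shown above, lay between 1.003 and 2.16 in the groups of muscle, in periosteum P1 and P3 and in bone marrow P1 and P3, and between 1.63 and 35.7 in periosteum P2. In bone marrow P2, Col4a1 stood at 124, 0 and 0. Bone marrow P1 was higher by 8.81 for Col4a1 (SE 1.07, adjusted p = 1.21e-06) and 3.73 for Col4a2 (SE 0.82, adjusted p = 0.00131). The call of Col4a2 in periosteum (3.20, adjusted p = 0.00814) came with overlapping libraries and was lost without periosteum P1 replicate 1 or periosteum P2 replicate 2 (adjusted p = 0.0554 to 0.0649).

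Col4a3 and Col4a5 are minor type IV chains, which replace the common pair in specialised membranes. Col4a5 stood at 656, 719.6 and 697 in muscle P1, 0, 0 and 3.53 in periosteum P1 and 1.28, 1.33 and 0 in bone marrow P1. Muscle exceeded both tissues in every library, by 8.71 against periosteum (SE 1.73, adjusted p = 0.00323) and 8.63 against bone marrow (SE 1.73, adjusted p = 0.00152). Most libraries outside muscle held values near the pseudocount of 1, which sets the size of these changes. Col4a3 stood at 1335, 2018 and 69.9 in muscle P3, 1.89, 0.815 and 21.2 in periosteum P3 and 32.2, 122 and 119 in bone marrow P3. Muscle was higher than periosteum by 6.88 (SE 1.08, adjusted p = 0.000743), and periosteum was the lowest of the 3, with a change of -4.01 against bone marrow (adjusted p = 0.0229). That last call was lost without periosteum P3 replicates 1 or 2 or bone marrow P3 replicates 2 or 3 (adjusted p = 0.064 to 0.114). In periosteum P1, Col4a3 at 2.17, 2.28 and 3.85 lay below P2 at 37.8, 76.4 and 105 (change -4.21, SE 1.08, adjusted p = 0.00798), a call lost after quantile normalization (adjusted p = 0.0505). With the groups fitted alone, the adjusted p of Col4a3 was 0.203 in that comparison and 0.0748 for muscle P3 against periosteum P3. In P2 cells the order was different: Col4a3 stood at 289, 288 and 237 in bone marrow and 195, 166 and 81.1 in muscle, without overlap, and this pair of groups was not tested.

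Col18a1, a basement membrane proteoglycan that is the source of endostatin, stood at 1368, 1361 and 2666 in muscle P1 and 85.9, 105 and 33 in bone marrow P1. The groups did not overlap (change 4.65, SE 1.01, adjusted p = 0.00308). In P3 cells it was higher in muscle than in bone marrow by 3.72 (adjusted p = 0.0157) and in periosteum than in bone marrow by 3.51 (adjusted p = 0.0338). The muscle call was lost without muscle P3 replicates 2 or 3 or bone marrow P3 replicates 2 or 3 (adjusted p = 0.0528 to 0.084), and the periosteal call without periosteum P3 replicates 1 or 2 or bone marrow P3 replicates 2 or 3 (adjusted p = 0.0573 to 0.151). In muscle, P1, P2 and P3 overlapped at 1368, 1361 and 2666, 1188, 3028 and 995 and 1305, 1458 and 1513.

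Among the other collagens, type VI forms the beaded filament around cells. Col6a1 stood at 8868, 5489.9 and 7796 in bone marrow P1 and 202, 174 and 148 in bone marrow P2. Every P1 library exceeded every P2 library, by 5.38 (SE 0.39, adjusted p = 4.15e-10), and Col6a2 did so by 6.05 (SE 0.46, adjusted p = 1.03e-09). Col6a3, the third major chain, was not called there (change 1.35, adjusted p = 0.0745). In P3 cells all 3 chains were higher in muscle than in bone marrow, by 2.40, 2.40 and 3.72 (adjusted p = 0.000156, 0.000965 and 0.000105). They were also higher in periosteum than in bone marrow, by 2.25, 2.32 and 3.04 (adjusted p = 0.000585, 0.00249 and 0.00179). Muscle P3 held 18791, 22660.5 and 19322 of Col6a1 and bone marrow P3 9709, 2489 and 2317, with bone marrow replicate 1 far above the others. With periosteum P3 and bone marrow P3 fitted alone, none of the 3 was called (adjusted p = 0.148, 0.195 and 0.143). In muscle, P1 held 19277, 16258 and 18022 and P3 18791, 22660.5 and 19322 of Col6a1, which overlapped. The per-kb ratio of Col6a1 to Col6a2 lay between 1.16 and 3.07 over the 27 libraries.

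Col10a1, the network collagen of hypertrophic cartilage, stood at 3657, 19594 and 4022 in periosteum P1 and 0, 5.16 and 7.28 in periosteum P2. The groups did not overlap, and this was the largest rise in periosteum, 10.80 (SE 2.19, adjusted p = 0.00113). With P2 values this low, the pseudocount of 1 affects the size of this change. Periosteum P1 replicate 2, the highest for Col10a1, was also the highest of its group for Col2a1 and Col9a1. Against periosteum P3, which held 1.49, 118 and 36, the change was 8.22 (adjusted p = 0.0308), a call lost without periosteum P1 replicates 1, 2 or 3 or periosteum P3 replicate 1 (adjusted p = 0.0518 to 0.117). Against bone marrow P1 it was 7.38 (adjusted p = 0.0492), lost on leaving out any 1 of 16 libraries, and with a replicate block its adjusted p was 0.0553. Muscle P1 held 29.8, 2399 and 1.13 and bone marrow P3 1315, 7.67 and 22.6, in each of which 1 library stood far above the others. The per-kb ratio of Col10a1 to Col2a1 was 0.0872 to 0.0958 in periosteum P1 and at most 2.25e-05 in periosteum P2.

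Type VIII, a short-chain network collagen of endothelial and other membranes, was chosen after its values were seen. Col8a1 stood at 28011, 7911 and 9800.0 in periosteum P1 and 1155, 25.7 and 414 in P2 (change 5.79, SE 0.84, adjusted p = 2.63e-05). Col8a2 stood at 10221, 1718 and 4992 in periosteum P1 and 18.8, 27.7 and 6.31 in bone marrow P1. No library overlapped, and the change was 8.11 (SE 1.13, adjusted p = 7.12e-05). Muscle P1 at 1481, 1229 and 2148 also exceeded bone marrow P1 in Col8a2, by 6.62 (SE 1.13, adjusted p = 0.000306). Fitted with both groups alone, Col8a1 lost its periosteal call (adjusted p = 0.183).

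Col13a1, a transmembrane collagen of cell adhesions, also chosen after its values were seen, stood at 3217, 5426 and 3299 in bone marrow P1, 85.7, 117 and 172 in P2 and 43.2, 32.7 and 52 in P3. P1 lay above both in every library, with an adjusted p of 0.00409 against P2 and a change of 6.49 against P3 (SE 1.27, adjusted p = 0.00166). Col17a1, the epithelial hemidesmosome collagen, was listed at 0 in every bone marrow P1 library and stood at 155, 17.1 and 292 in bone marrow P2 (adjusted p = 0.000515), so no fold is given. Col25a1, Col28a1 and Col6a5 were called in 0 of the 12 comparisons of groups.

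The genes that make, bind and break down collagen were read as lists of 34, 9 and 7 genes. Of the 34 biosynthesis and cross-linking genes, 26 were higher in P1 than P2 in bone marrow, 7 in periosteum and 4 in muscle, with 1, 0 and 0 lower. Of all genes, 10.4%, 10.1% and 3.59% were higher in the same order and 23.7%, 8.96% and 4.62% were lower. In bone marrow the median change of the list was 4.14 on the log2 scale, against -0.61 for all genes. Pcolce, which speeds the trimming of procollagen, stood at 21678, 22183 and 13882 in bone marrow P1 and 54.8, 103 and 113 in P2. The groups did not overlap (change 7.76, SE 0.58, adjusted p = 6.23e-10). P4hb, a subunit of prolyl 4-hydroxylase, rose by 3.69 (SE 0.39, adjusted p = 1.39e-07), and Ppib, a prolyl isomerase, by 2.89 (SE 0.34, adjusted p = 8.19e-07). Against P3, 22 of the 34 were higher in bone marrow P1, 2 in periosteum P1 and 0 in muscle P1, with 0 lower in each. In that order, 3.46%, 1.39% and 0.141% of all genes were higher and 3.14%, 2.79% and 0.325% were lower. The bone marrow changes were 3.97 for Pcolce, 2.41 for P4hb and 1.67 for Ppib (adjusted p = 5.72e-05, 0.000194 and 0.00239). Tested between muscle and bone marrow, 9 of the 34 had a smaller P1 to P3 change in muscle, against 2.03% of all genes called in either direction, among them Pcolce (-3.43, adjusted p = 0.0254) and P4hb (-2.20, adjusted p = 0.0327). Each of these 2 interaction calls was lost on leaving out any 1 of 10 libraries, all of the 4 groups it involves. With equal totals per library, the bone marrow change of Ppib against P3 fell to 0.70 (adjusted p = 0.095) and that of P4hb to 1.44. Serpinh1, the collagen chaperone, was named after its values were seen: it stood at 37695, 45542 and 26350.2 in bone marrow P1, 4777, 6204 and 3589.8 in periosteum P1 and 1658, 1828 and 1671 in muscle P1. Muscle lay below bone marrow in every library (-4.37, SE 0.96, adjusted p = 0.00336).

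Of the 9 receptor genes, 3 were higher in P1 than P2 in muscle, 3 higher and 1 lower in periosteum, and 5 higher and 1 lower in bone marrow. The shares of all genes were 3.59% higher in muscle, 10.1% higher and 8.96% lower in periosteum, and 10.4% higher and 23.7% lower in bone marrow. Itgb1, the integrin beta-1 chain shared by the collagen-binding integrins, stood at 8710.4, 9175 and 10757 in muscle P1 and 1933, 3509 and 2773 in P2. No library of either group overlapped the other (change 1.84, SE 0.35, adjusted p = 0.00107), and bone marrow P1 exceeded P2 by 2.17 (adjusted p = 5.1e-05). Itga11, an integrin chain of fibroblasts, rose in P1 by 2.01 in periosteum (adjusted p = 0.0181) and 5.34 in bone marrow (adjusted p = 3.03e-07). The periosteal call of Itga11 was lost without periosteum P1 replicate 2 (adjusted p = 0.0587). Ddr2, a receptor tyrosine kinase for fibrillar collagen, rose by 4.95 in bone marrow (adjusted p = 0.000521). In periosteum it stood at 3135, 3271 and 3376 in P1 and 3425, 27.4 and 395 in P2, which overlapped, and its change of 3.27 (adjusted p = 0.0222) was lost without periosteum P1 replicates 1 or 3 or periosteum P2 replicate 2 (adjusted p = 0.0519 to 0.174). In P1 cells, 1 of the 9 was lower in muscle than in bone marrow, against 2.94% of all genes. Between the other tissues, limma called 0.

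Of the 7 breakdown genes, 1, 4 and 5 were higher in P1 than P2 in muscle, periosteum and bone marrow, and 0 were lower. Of all genes, 3.59%, 10.1% and 10.4% were higher in the same order and 4.62%, 8.96% and 23.7% were lower. Mmp13, an interstitial collagenase, was the muscle gene: it stood at 1174, 1360.3 and 1261 in P1 and 2.89, 5.01 and 11.3 in P2, a change of 7.58 (SE 1.18, adjusted p = 0.000125). Mmp2, a gelatinase, stood at 31353, 50508 and 28118 in bone marrow P1, 78.2, 28 and 38.6 in P2 and 520.0, 464 and 1162 in P3. P1 exceeded both in every library, by 9.62 (adjusted p = 2.66e-14) and 5.76 (SE 0.40, adjusted p = 1.72e-09). In muscle, Mmp2 held 20542, 20301 and 20928 in P1 and 13739.8, 17413 and 16183 in P3. The P1 to P3 change of Mmp2 was smaller in muscle than in bone marrow (interaction -5.37, SE 0.57, adjusted p = 1.03e-05) and smaller in periosteum (interaction -4.61, adjusted p = 0.000166). Mmp14, a membrane-bound activator of Mmp2, rose in bone marrow P1 by 8.72 over P2 (adjusted p = 2.82e-09) and 2.32 over P3 (adjusted p = 0.0455). The latter call was lost on leaving out any 1 of 11 libraries, and equal totals per library took the change to 1.35 (adjusted p = 0.307).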

How the data were processed

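RNA-seq libraries of 27 sorted samples, 3 from each of 9 groups, were read from 1 deposited table. Per the labels, cDNA was made with a SMART-Seq kit. Per the study's methods, reads were checked with FastQC, trimmed with Trim Galore and aligned with STAR, and the authors applied DESeq2 to the counts. The genome build, annotation and counting tool are not given in the sources used here. The deposited values are a signal per gene, namely normalized counts that are not whole numbers. The steps between low values differed from gene to gene, so whole reads were not recovered, the depth in reads is unknown and no count model or counting interval was used. The table held 30154 entries, of which 1 transgene entry was left out, and 3 of the 30153 genes had no symbol. P3h1 to P3h4 and Cnmd were matched by the older symbols in the table. The 18442 genes that reached 10 in 3 libraries or more were tested, and 11711 were removed, 2455 of them at 0 throughout.

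Values were transformed to log2(value + 1), which understates the change of low genes. A model with a mean for each of the 9 groups was fitted to all kept genes with limma 3.58.1 in R 4.3.3, with a trend in the empirical Bayes prior and Benjamini-Hochberg adjustment across these 18442 genes. As in the study, called genes had an absolute log2 change above 1.5 with an adjusted p below 0.05. Interactions were called at an adjusted p below 0.05 alone. Tests were two-sided. The fitting code was tested on simulated data in which known changes had been placed in every P1 and P3 group. Levels per kb used the longest coding transcript of each gene in GENCODE vM21. Promoter windows came from RefSeq (GRCm38.p6) by symbol. Tables and figures were made with Python 3.11.15, pandas 2.3.3, numpy 2.4.6 and matplotlib 3.10.9.

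The members and the gene lists were chosen with earlier results of these data known. Named genes were, in each class, those of highest mean level (4 fibrillar and 3 in each other class), the called gene of largest change without overlap in each comparison and direction, Col2a1, Col9a1, Col10a1 and Col11a2, and the 3 of highest level in each list of pathway genes. Others were chosen after their values were seen, as stated beside them. Alternatives were the pseudocount (0.1 and 5), no filter or a mean of at least 50, a replicate block, a prior without trend, equal totals per library, equal totals without collagens and globins, quantile normalization, the compared groups alone, an adjusted p below 0.01, any fold change, and each library left out in turn. P2 cells were not compared between tissues.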

Additional observations from a re-analysis of the deposited data

Results flagged for a closer look

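The change from P3 to P1 differed between tissues for 6 fibrillar collagens, by a test of the difference itself (limma interaction, adjusted p below 0.05 over all genes tested). Between muscle and bone marrow the difference on the log2 scale was -5.74 for Col1a1, -5.45 for Col1a2, -3.98 for Col5a1, -5.20 for Col5a2, -4.24 for Col11a1 and -4.45 for Col11a2, each with the smaller rise in muscle. Between periosteum and bone marrow it was -3.94 for Col1a1 (adjusted p = 0.0226), -3.54 for Col1a2 (adjusted p = 0.0138), -2.69 for Col5a1 (adjusted p = 0.00239) and -3.56 for Col5a2 (adjusted p = 0.0267). The call of Col11a1 between muscle and bone marrow (adjusted p = 0.0445) was lost on leaving out any 1 of 15 libraries and that of Col11a2 on leaving out any 1 of 11. Between periosteum and bone marrow, the call of Col1a2 was lost without bone marrow P1 replicate 2 (adjusted p = 0.0558), that of Col1a1 without periosteum P1 replicate 1, periosteum P3 replicate 2, bone marrow P1 replicates 1 or 2 or bone marrow P3 replicate 2 (adjusted p = 0.0501 to 0.0832), and that of Col5a2 without periosteum P1 replicate 1, periosteum P3 replicate 2, bone marrow P1 replicates 1 or 2 or bone marrow P3 replicate 2 (adjusted p = 0.062 to 0.106). After quantile normalization Col1a2 lost its muscle against bone marrow call (adjusted p = 0.286). That setting also ended the calls of Col1a1 and Col1a2 between periosteum and bone marrow, and a prior without trend ended all 4 calls between periosteum and bone marrow. Col5a2 lost that call with equal totals per library as well (adjusted p = 0.0827). Levels of 8 osteoblast marker genes, none of them a collagen and all 8 in the table, moved with these differences. Their summed normalized counts per library were 939237 to 1342688 in bone marrow P1 and 16744 to 30657 in P3, 250330 to 492443 and 30680 to 76912 in periosteum, and 11695 to 30643 and 7077 to 8472 in muscle. Their part in the differences was not tested.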

How the results depend on the processing

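Of 147 changes of named genes that were called, 1332 of 1468 values under other settings kept direction and call, 135 lost the call and 1 reversed. The reversal was Col1a1 between periosteum P1 and bone marrow P1, at 0.14 on the log2 scale after quantile normalization. With 1 library left out, 3745 of 3969 values kept the call, 224 lost it and 0 reversed. The cause of lost calls was not tested.

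Counts of called collagens moved by more than 1.5 times as follows. At an adjusted p below 0.01, P1 against P2 had 8 in muscle and 10 in periosteum, and P1 against P3 had 4 in periosteum. In the same setting, P1 had 7 for muscle against periosteum and 9 for periosteum against bone marrow, P3 had 4 for muscle against periosteum and 13 for muscle against bone marrow, and the interaction of periosteum and bone marrow had 1. With the compared groups alone, P1 against P2 had 3 in periosteum, P1 against P3 had 5 in muscle and 0 in periosteum, P1 had 9 for muscle and 9 for bone marrow against periosteum, and P3 had 5 for periosteum against bone marrow. The interactions with bone marrow then had 12 for muscle and 1 for periosteum. After quantile normalization, P1 against P3 had 1 in muscle and 5 in periosteum. Without a trend in the prior, periosteum P1 against bone marrow P1 had 9 and the interaction of periosteum and bone marrow had 0.

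With each library left out in turn, called collagens for P1 against P2 ranged from 9 to 14 in muscle, 11 to 16 in periosteum and 24 to 29 in bone marrow. For P1 against P3 they ranged from 0 to 0, 4 to 10 and 8 to 17 in the same order. In P1 they ranged from 8 to 17 for muscle against periosteum, 16 to 22 for muscle against bone marrow and 9 to 16 for periosteum against bone marrow, and in P3 from 2 to 12, 12 to 21 and 10 to 20. The interactions ranged from 0 to 1, 4 to 8 and 1 to 6 in that order of tissues.

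Without Col1a1 and Col1a2, the collagen share was 1.80% in muscle P1, 2.06% in muscle P3, 3.70% in periosteum P1, 2.07% in periosteum P3, 2.63% in bone marrow P1 and 0.317% in bone marrow P3. With globins left out of the total it was 5.73% in periosteum P2 and 0.104% in bone marrow P2. With 1 library left out, shares ranged from 31.0% to 37.6% in bone marrow P1, 0.0484% to 0.0752% in P2 and 0.912% to 1.40% in P3, from 13.2% to 17.9%, 3.22% to 4.24% and 3.84% to 5.72% in periosteum P1, P2 and P3, and from 3.56% to 3.94%, 0.746% to 1.06% and 3.10% to 3.36% in muscle.

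Replicate numbers were shared between groups, but same-numbered libraries did not deviate together (mean correlation 0.000242 over 36 pairs of groups, -0.0592 to 0.0502). A shared mouse that moved few genes could leave such a correlation low. The check therefore cannot decide whether same-numbered libraries came from the same mouse. With a replicate block, called collagens numbered 14, 15 and 28 for P1 against P2 in muscle, periosteum and bone marrow, 0, 10 and 13 for P1 against P3, 16, 20 and 14 for the P1 comparisons of tissues, 10, 21 and 21 for P3, and 0, 6 and 5 for the interactions. The block ended 3 of 147 calls: Col10a1 between periosteum P1 and bone marrow P1, Col9a3 between muscle P3 and periosteum P3, and Mmp14 between bone marrow P1 and P3 (adjusted p = 0.0573). The depth in reads is unknown, so counting error could not be set apart from the spread between libraries.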
